A study of Mus musculus with 12 samples.

Results

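Expression of 10 genes of prostaglandin synthesis, breakdown and signalling was followed in mouse 3T3 fibroblasts exposed to vesicles from human breast cancer cells. The genes were Ptgs1, Ptgs2, Ptges, Ptges2, Ptgis, Ptgds, Hpgd, Ptger2, Ptger4 and Ptgfr. Ptgds was chosen on its strong rise after vesicles from CRIPTO-knockdown donor cells, and the other 9 genes were chosen for their roles in the same pathway. These were 10 of the 32544 gene symbols in the table. Of the 10, 8 were among the 14279 genes that passed the low-count filter and were tested, and Hpgd and Ptger2 were not.

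The study profiled poly(A) RNA of 3T3 cells, a mouse fibroblast line, in 12 libraries, 3 for each of 4 groups. Untreated cells formed the reference, and the remaining groups received extracellular vesicles (EVs), membrane-enclosed particles that cells release, for 24 hours. The donor of all vesicles was the human breast cancer line MDA-MB-468 in 3 forms: a control line (shCon EV), a line with CRIPTO knocked down (shCr EV) and a line overexpressing CRIPTO (CrOE EV). CRIPTO is a cell-surface protein, and it was altered in the donor cells and not in the fibroblasts. The labels name no mock-treated group and no separate control line for the overexpressing donors, so CrOE EVs were set against the same shCon EVs and untreated cells as shCr EVs. The labels do not say that the 3 libraries of a group came from separate cultures, so p-values measure the spread between these libraries, which may be technical. The CrOE group name rests on 3 columns that carry only the protein's name and were assigned by elimination.

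Libraries held 25960054 to 37774020 counts. The 3 CrOE EV libraries stood apart from the other 9: their log2 CPM (a gene's count relative to the library's TMM-scaled total) correlated at 0.900 to 0.921 with the other groups, against 0.974 to 0.991 between libraries of different groups among the other 9. One shCr EV library, replicate 1, lay at 42 on the third principal component, which held 4.14% of the variance. The other libraries lay at -20.2 to 10.1, the highest being CrOE EV replicate 2 at 10.1 and untreated replicate 1 at 8.81. Mitochondrial genes held 0.622%, 0.693% and 0.495% of the counts in these 3 libraries, in that order, and 0.991% to 1.7% in the others. A link of this share to the component was not tested. Of 10 fibroblast markers, 9 were called lower in CrOE EV than in untreated libraries and 0 higher (edgeR, as below), where 37.0% of all tested genes were lower. The summed level of the 10 markers was 8470 to 8850 CPM after CrOE EVs, 15100 to 17300 after shCr EVs, 24400 to 24800 after shCon EVs and 19300 to 20700 in untreated cells. The part of this marker shift in the results on CrOE EVs was not tested. Col1a1, Col1a2 and Fn1 had the highest means after shCon EVs, 6557, 5203 and 7237 CPM, and weigh most in that sum. Between shCr and shCon EVs 4 markers were called lower (Col1a1, Col1a2, Col3a1 and Fn1) and 3 higher (Pdgfra, Vim and Dcn). Of all genes, 3.51% were lower and 5.22% higher there. The median log2 difference of the 10 was 0.033, beside 0.0043 over all tested genes. The summed level of 8 epithelial markers was 2.43 to 3.96 CPM over all libraries. Epcam had 0 counts in each, while Cldn4 had 0 counts in the 3 untreated libraries and 40, 40 and 36 after CrOE EVs. Against untreated cells, Cldn4 and Krt18 were called higher and Krt7 lower after CrOE EVs, 3 of the 4 epithelial markers tested. The part of these markers in the results on CrOE EVs was not tested. In bulk RNA, fewer cells of a type and less RNA per cell cannot be told apart.

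Prostaglandins are short-lived lipid signals made from arachidonic acid, which phospholipases release from membranes. The cyclooxygenases Ptgs1, generally constitutive, and Ptgs2, generally inducible, turn arachidonic acid into an unstable endoperoxide, and terminal synthases convert that into single prostaglandins that act on G-protein-coupled receptors. Fibroblasts are a known source of prostaglandin E2, which takes part in inflammation, wound repair and the tumour stroma.

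Most of the 8 tested genes differed between groups, and the synthases did not move as a block. A gene was called at an adjusted p under 0.05 (edgeR quasi-likelihood test, Benjamini-Hochberg over the 14279 genes). After shCon EVs, 6 of 8 were called against untreated cells, where 38.1% of all tested genes were. One was higher (Ptgds, against 18.0% of all genes higher) and 5 were lower (Ptgs1, Ptgs2, Ptges, Ptgis and Ptgfr, against 20.2% lower). After CrOE EVs, 6 of 8 were called against untreated cells, where the share of all genes was 73.7%. There Ptgs2 was the 1 gene higher (36.7% of all genes) and Ptges, Ptgis, Ptgds, Ptger4 and Ptgfr were the 5 lower (37.0%). The comparison of shCr EVs with untreated cells holds the rise that Ptgds was chosen on. In it no test of the 8 is reported. The fit put 6 of 8 past the same threshold, 1 higher (Ptgds itself) and 5 lower, beside 37.3% of all genes (18.4% higher and 18.8% lower), and nothing is read from that count. The 3 comparisons with untreated cells share the untreated libraries. The calls of Ptgds after shCon and CrOE EVs thus reuse part of the values it was chosen on.

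Between EV groups, the knockdown and the control vesicles were the closest pair. Of the 7 tested genes other than Ptgds, 2 were called between shCr and shCon EVs, Ptgs2 and Ptges, both higher after shCr EVs. Of all genes, 8.73% were called there, 5.22% higher and 3.51% lower. All 8 were called between CrOE and shCon EVs, 3 higher (Ptgs1, Ptgs2 and Ptges2) and 5 lower, beside a share of 72.6% of all genes (36.5% higher, 36.1% lower). For CrOE against shCr EVs, the test called 7 of the 7 genes other than Ptgds, 3 higher and 4 lower, where 73.9% of all genes were called, 36.9% higher and 37.0% lower. With most genes called in every comparison with CrOE EVs, a count of prostaglandin genes called there says little about these genes, and the sizes of their changes are given below.

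**Figure D1:**
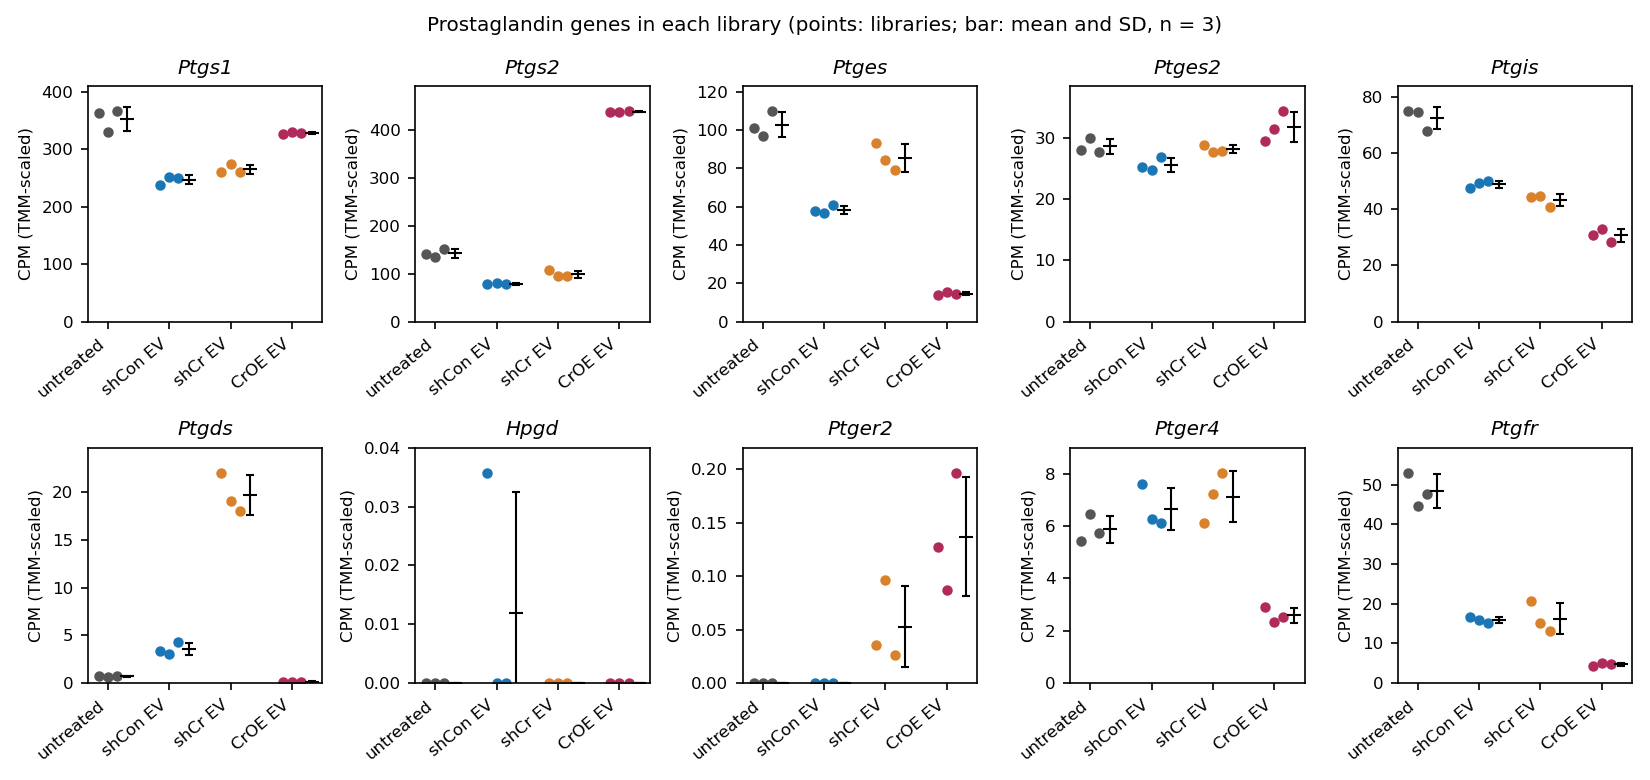
Level of each of the 10 prostaglandin genes in every library, in TMM-scaled CPM on linear axes from 0, with points for libraries and bars for the group mean and SD (n = 3). Ptgds stands at 18.0 to 22.0 CPM after shCr EVs and at most at 4.29 CPM elsewhere, Ptgs2 stands highest after CrOE EVs, and Hpgd and Ptger2 are at or close to 0 throughout.

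Upstream sequences of the 3 synthesis genes whose levels differed most between vesicle types are shown first, because Ptgds, Ptgs2 and Ptges each took a different order over the groups. They are the 250 bases before the transcript start in RefSeq (build GRCm38.p6; the count table was made on mm39, so genes were matched by symbol). Of the 10 genes, 9 had an entry. Each is written 5′ to 3′ on the gene's strand, in lower case, with capitals for matches to any of 5 short motifs searched on both strands: the TATA-box core TATAAA, the E-box CACGTG, the letters TGACG of a cyclic AMP response element, the GC box GGGCGG and the box CCAAT. The coordinates are chr2:25469750-25469999 (minus strand) for Ptgds, chr1:150099781-150100030 (plus strand) for Ptgs2 and chr2:30903298-30903547 (minus strand) for Ptges.
Ptgds: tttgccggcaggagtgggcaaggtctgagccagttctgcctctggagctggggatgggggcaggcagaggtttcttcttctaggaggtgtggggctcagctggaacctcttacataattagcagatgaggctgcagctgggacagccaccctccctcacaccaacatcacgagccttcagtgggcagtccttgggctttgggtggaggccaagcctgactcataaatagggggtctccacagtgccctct
Ptgs2: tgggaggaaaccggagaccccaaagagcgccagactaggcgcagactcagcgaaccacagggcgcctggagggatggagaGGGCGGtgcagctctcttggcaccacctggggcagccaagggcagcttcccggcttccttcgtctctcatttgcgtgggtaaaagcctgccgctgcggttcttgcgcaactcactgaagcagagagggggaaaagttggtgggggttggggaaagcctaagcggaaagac
Ptges: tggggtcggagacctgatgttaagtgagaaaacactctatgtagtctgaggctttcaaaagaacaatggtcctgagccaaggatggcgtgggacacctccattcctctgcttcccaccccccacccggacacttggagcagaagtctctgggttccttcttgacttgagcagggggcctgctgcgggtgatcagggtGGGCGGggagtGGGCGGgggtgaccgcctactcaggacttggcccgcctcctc
The Ptgds window held none of the 5 motifs. The Ptgs2 window held GGGCGG 170 to 165 bases before the start, and the Ptges window held it at 53 to 48 and at 42 to 37 bases before the start. Of 32851 mouse promoter windows of the same length, 32.7% held GGGCGG, 33.8% CCAAT, 17.8% TGACG, 12.4% TATAAA and 6.02% CACGTG. The GC content was 58.4% for Ptgds, 61.6% for Ptgs2 and 59.6% for Ptges, above the median of 52.4% over all windows. No binding or chromatin data were measured here, so a match describes letters in a window and not a site in use, and a window without one says nothing of a factor.

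Ptgs1, the constitutive cyclooxygenase, was lower after shCon EVs than in untreated cells, and its level after CrOE EVs was not called different from untreated. Its level was 364, 329 and 366 CPM in untreated replicates 1, 2 and 3, 238, 252 and 250 after shCon EVs, 260, 275 and 259 after shCr EVs, and 327, 330 and 328 after CrOE EVs. The shCon and shCr libraries all lay below every untreated and CrOE library, while the untreated and CrOE ranges overlapped. After shCon EVs Ptgs1 was 1.43-fold lower than in untreated cells (log2 difference -0.52, SE 0.052, edgeR adjusted p = 7.72e-06). The difference between shCr and shCon EVs was 0.10 (SE 0.052, 95% interval -0.019 to 0.22, edgeR adjusted p = 0.286), so these neighbours in order were not separated. CrOE EVs exceeded shCon EVs by 0.41 (SE 0.052, edgeR adjusted p = 1.06e-05) and shCr EVs by 0.31 (SE 0.052, edgeR adjusted p = 0.000121), while CrOE EVs against untreated gave -0.10 (SE 0.052, 95% interval -0.22 to 0.015, edgeR adjusted p = 0.0865). That last call was made by DESeq2 (adjusted p = 0.0367), with a filter of at least 10 counts in every library (edgeR adjusted p = 0.0236) and without untreated replicate 2 (edgeR adjusted p = 0.0139).

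Ptgs2, the inducible cyclooxygenase, went down with the control vesicles and up with the CrOE vesicles. Ptgs2 stood at 141, 134 and 152 CPM in untreated libraries, 77.5, 80.6 and 78.1 after shCon EVs, 107, 95.2 and 94.2 after shCr EVs, and 437, 436 and 439 after CrOE EVs. No 2 groups overlapped, and the order from lowest to highest was shCon EV, shCr EV, untreated, CrOE EV. After shCon EVs the level was 1.81-fold lower than untreated (log2 difference -0.85, SE 0.060, edgeR adjusted p = 3.32e-07), and after CrOE EVs it was 3.07-fold higher (1.62, SE 0.061, edgeR adjusted p = 6.28e-11). The rise of Ptgs2 after CrOE EVs was the 644th largest among 14279 genes in that comparison. Between vesicle types, CrOE EVs gave 5.55 times the level of shCon EVs (log2 difference 2.47, SE 0.063, edgeR adjusted p = 2.70e-12) and 4.42 times that of shCr EVs (2.15, SE 0.062, edgeR adjusted p = 6.00e-12).

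The smaller difference of Ptgs2 between the knockdown and the control vesicles also passed the test. It was 98.9 ± 7.24 CPM (SD, n = 3) after shCr EVs and 78.8 ± 1.66 after shCon EVs, a log2 difference of 0.33 (SE 0.060, edgeR adjusted p = 0.00496). Without shCr EV replicate 1, the library that lay apart on the third component and had the highest Ptgs2 of its group, the difference was 0.26 (edgeR adjusted p = 0.00529). In a model of these 2 groups alone, with no CrOE library in it, Ptgs2 differed by 0.32 (edgeR adjusted p = 0.0336). Against untreated cells, the level after shCr EVs was lower by a log2 difference of -0.53, given without a test.

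The balance of the 2 cyclooxygenases was set on a scale of CPM per kb of exon, which roughly allows for the different lengths of genes. The ratio of Ptgs2 to Ptgs1 was 0.342 ± 0.013 (SD, n = 3) in untreated cells, 0.271 ± 0.0055 after shCon EVs, 0.317 ± 0.029 after shCr EVs and 1.13 ± 0.0058 with CrOE EVs. On this scale Ptgs1 was the higher in 9 of 12 libraries, and Ptgs2 in the 3 CrOE EV libraries, where it stood at 95.5 CPM per kb beside 84.5 for Ptgs1. The lengths used, 3.88 kb for Ptgs1 and 4.58 kb for Ptgs2, join all annotated exons of a gene. Which transcripts the cells made was not determined, so the order of the 2 genes after CrOE EVs is uncertain. The ratio was not tested by itself.

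**Figure D2:**
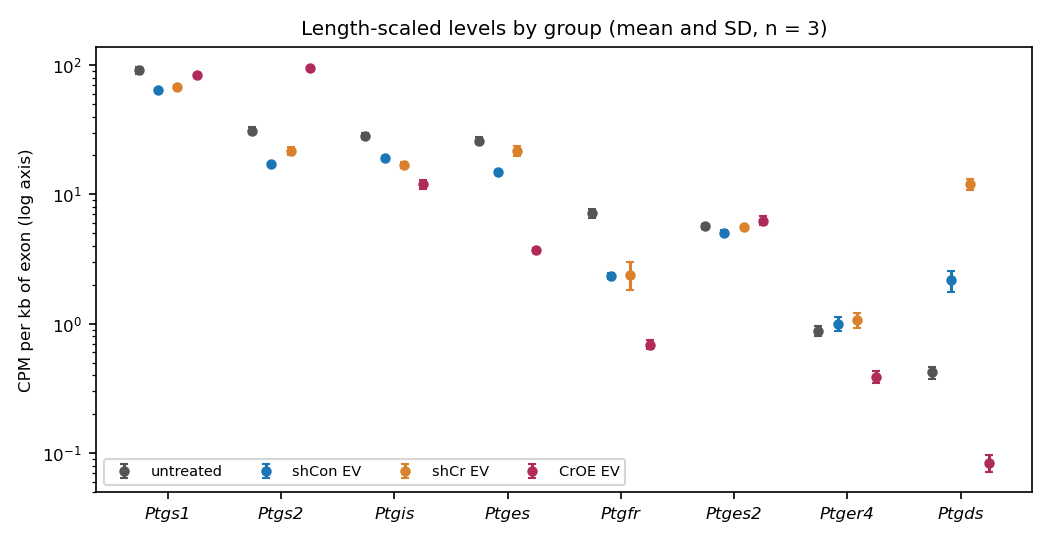
Levels of the 8 tested genes in CPM per kb of exon on a log axis, as group means with SD (n = 3). Ptgs1 is the highest in untreated cells at 90.9 CPM per kb, Ptgs2 reaches 95.5 after CrOE EVs, and Ptgds spans the widest range, from 0.0839 after CrOE EVs to 12 after shCr EVs.

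Among the terminal synthases, Ptgds showed the widest range. It encodes lipocalin-type prostaglandin D synthase, a secreted enzyme that makes prostaglandin D2 and also carries lipophilic molecules. Ptgds stood at 0.732, 0.610 and 0.736 CPM in untreated libraries (20, 16 and 20 counts), 3.36, 3.02 and 4.29 after shCon EVs (94, 91 and 119 counts), 22.0, 19.1 and 18.0 after shCr EVs (625, 596 and 679 counts), and 0.159, 0.116 and 0.140 after CrOE EVs (5, 4 and 5 counts). No 2 groups overlapped, and the order was CrOE EV, untreated, shCon EV, shCr EV.

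The rise of Ptgds after shCr EVs is what Ptgds was chosen on, so it is described and not tested. Its mean was 19.7 ± 2.09 CPM (SD, n = 3) there and 0.693 ± 0.072 in untreated cells, a 28.2-fold difference (log2 4.82). This placed it 6th from the top among the 14279 genes of that comparison. Against shCon EVs it was 5.54-fold higher (log2 2.47), 8th from the top, and against CrOE EVs the log2 difference of CrOE minus shCr was -7.12. These values use the same shCr libraries and add no separate evidence.

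The comparisons of Ptgds that leave out the shCr libraries were tested. Those against untreated cells reuse the untreated libraries of the comparison it was chosen on, so they are not independent of that choice. CrOE against shCon EVs uses neither group of that comparison. Ptgds was also higher after shCr than after shCon EVs, though, so the shCon libraries may be part of the choice. The spread was estimated with all libraries, the shCr ones included. That test is therefore not taken as independent either. Control vesicles were followed by 5.10 times the untreated level of Ptgds (log2 difference 2.35, SE 0.18, 95% interval 1.94 to 2.76, edgeR adjusted p = 6.39e-07), with all 3 shCon libraries above all 3 untreated ones. It ranked 49th from the top, and 0.735% of the tested genes had a larger change in either direction. After CrOE EVs Ptgds was 4.91-fold lower than in untreated cells (log2 difference -2.30, SE 0.31, edgeR adjusted p = 1.94e-05) and 25.0-fold lower than after shCon EVs (-4.64, SE 0.23, 95% interval -5.18 to -4.12, edgeR adjusted p = 1.12e-09). At 4 to 5 counts per library after CrOE EVs, the size of the last 2 differences rests on few counts. The alternatives that tested it gave -2.39 to -2.19 and -4.75 to -4.49. They refit the same few counts, so their range does not lift that limit. The annotation (GENCODE M21) places no other gene on the exons of Ptgds.

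Markers of other cell types known to express Ptgds were looked at beside these values. The leptomeningeal and glial markers Slc22a6, Aldh1a2 and Sox10 had 0 counts in all 12 libraries. The summed CPM of the 8 markers on that list was lowest in untreated libraries, 2.43 to 2.60. It was 3.76 to 4.61 in shCon EV libraries, 2.93 to 3.63 in shCr EV libraries, and 3.81 to 4.94 with CrOE EVs. Of the adipocyte markers, Cidec had 0 counts in every library and Adipoq at most 2 counts. Others of that list were well detected, and those called between vesicle types differed in the same direction as Ptgds. The remaining differences did not all share that direction. Fabp4 had a log2 difference of -0.12 between shCr and shCon EVs, which was not called. Cebpa was called between no vesicle types, and its mean was highest among them with CrOE EVs, at 4.17 CPM. Between shCr and shCon EVs 2 of 5 tested were called, Lpl (log2 difference 0.41, SE 0.11, edgeR adjusted p = 0.0331) and Pparg (0.58, SE 0.084, edgeR adjusted p = 0.000925), both higher. Lpl stood at 205 CPM in shCr EV replicate 1, at 159 and 156 in replicates 2 and 3, and at 130 to 132 after shCon EVs. The alternative settings were not run on these markers. Between CrOE and shCr EVs 4 of 5 were called, Fabp4, Lpl, Pparg and Adipor2, all lower. After shCon EVs Fabp4, Lpl and Pparg were called lower than in untreated cells and Adipor2 higher, where Ptgds was higher. The 8 adipocyte markers summed to 266 to 340 CPM after shCr EVs, 240 to 244 after shCon EVs, 272 to 310 in untreated cells and 73.6 to 83.7 after CrOE EVs. Their part in the levels of Ptgds was not tested. The 7 leukocyte and endothelial markers summed to 4.19 to 8.50 CPM over all libraries.

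The genes whose pattern was most like that of Ptgds were named by Pearson correlation of log2 CPM over the 12 libraries, among the 11564 genes whose log2 CPM averaged 1 or more. They were Pitpnc1 (r = 0.988), Borcs6 (0.985), Gyg (0.983), Atp2b1 (0.981) and Hist1h1c (0.981). Over the 9 libraries without CrOE EVs the same genes had r of 0.983, 0.970, 0.976, 0.973 and 0.980. Libraries of a group share their treatment, so these values are mostly correlations over 4 group means and are given with no p. Pitpnc1, a phosphatidylinositol transfer protein, had the same order of groups over a smaller span, at 8.55 ± 0.43 CPM (SD, n = 3) after CrOE EVs, 13.6 ± 1.72 in untreated cells, 18.8 ± 0.89 after shCon EVs and 28.6 ± 1.77 after shCr EVs. Exons of Borcs6 overlap an antisense gene over 41.2% of their length, and Hist1h1c shares 11.4% of its 31-base stretches with other genes, so the values of both are uncertain.

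Ptges, the inducible microsomal synthase that usually works with Ptgs2 to make prostaglandin E2, did not follow Ptgs2 after CrOE EVs. Ptges stood at 101, 97.0 and 110 CPM in untreated libraries, 57.9, 56.5 and 60.7 after shCon EVs, 93.3, 84.2 and 79.1 after shCr EVs, and 13.9, 15.3 and 14.4 after CrOE EVs. No 2 groups overlapped, and the order was CrOE EV, shCon EV, shCr EV, untreated. After CrOE EVs it was 7.07-fold lower than untreated (log2 difference -2.82, SE 0.076, edgeR adjusted p = 3.23e-12), 4.02-fold lower than after shCon EVs (-2.01, SE 0.075, edgeR adjusted p = 7.77e-11) and 5.89-fold lower than after shCr EVs (-2.56, SE 0.075, edgeR adjusted p = 7.43e-12). After shCon EVs it was 1.76-fold lower than untreated (-0.81, SE 0.069, edgeR adjusted p = 1.73e-06).

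Knockdown vesicles were followed by more Ptges than control vesicles, 85.5 ± 7.21 CPM against 58.4 ± 2.10 (SD, n = 3). The log2 difference was 0.55 (SE 0.069, edgeR adjusted p = 0.00038), and 7.21% of tested genes had a larger difference in either direction. Without shCr EV replicate 1, which had the highest Ptges of its group, the difference was 0.48 (edgeR adjusted p = 0.000268), and in a model of these 2 groups alone Ptges differed by 0.54 (edgeR adjusted p = 0.00702). Against untreated cells the shCr value was -0.26, given without a test. Per kb of exon, the ratio of Ptgs2 to Ptges was 1.19 in untreated cells, 1.16 ± 0.060 (SD, n = 3) after shCon EVs, 0.992 ± 0.026 after shCr EVs and 25.9 ± 1.28 with CrOE EVs.

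Ptges2, a membrane-associated prostaglandin E synthase that is expressed in many tissues, varied least of the 8 tested genes. Ptges2 stood at 28.1, 30.0 and 27.6 CPM in untreated libraries, 25.2, 24.6 and 26.8 after shCon EVs, 28.8, 27.6 and 27.8 after shCr EVs, and 29.5, 31.4 and 34.3 after CrOE EVs. The untreated range overlapped those of shCr and CrOE EVs. The difference of shCon EVs from untreated cells was -0.16 (SE 0.067, 95% interval -0.31 to -0.0048, edgeR adjusted p = 0.0797), and that of CrOE EVs 0.15 (SE 0.066, edgeR adjusted p = 0.0536). Neither was called. The first passed in a model of only these 2 groups (edgeR adjusted p = 0.0497), and the second without untreated replicate 2 (edgeR adjusted p = 0.0342) and without CrOE EV replicate 1 (edgeR adjusted p = 0.0188). CrOE EVs exceeded shCon EVs by 0.31 (SE 0.066, edgeR adjusted p = 0.000927) and shCr EVs by 0.18 (SE 0.066, edgeR adjusted p = 0.0274). The call of Ptges2 between CrOE and shCr EVs was lost in 6 of 12 alternatives, among them without shCr EV replicate 2 (edgeR adjusted p = 0.0725), without shCr EV replicate 3 (edgeR adjusted p = 0.0659) and without CrOE EV replicate 3 (edgeR adjusted p = 0.133).

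Ptgis, prostacyclin synthase, was lower after every kind of vesicle. Ptgis stood at 74.9, 74.6 and 67.8 CPM in untreated libraries, 47.5, 49.2 and 50 after shCon EVs, 44.5, 44.6 and 40.7 after shCr EVs, and 30.8, 33.1 and 28.4 after CrOE EVs. The order was CrOE EV, shCr EV, shCon EV, untreated, with no overlap. Against untreated cells it was 1.48-fold lower after shCon EVs (log2 difference -0.57, SE 0.066, edgeR adjusted p = 2.63e-05) and 2.36-fold lower after CrOE EVs (-1.24, SE 0.067, edgeR adjusted p = 2.38e-09). The shCr value of -0.74 is given without a test. Between shCr and shCon EVs the difference was -0.18 (SE 0.066, 95% interval -0.33 to -0.025, edgeR adjusted p = 0.126), so those neighbours were not separated by the test. CrOE EVs lay below shCon EVs by a difference of -0.67 (SE 0.067, edgeR adjusted p = 1.15e-06) and below shCr EVs by one of -0.49 (SE 0.067, edgeR adjusted p = 1.99e-05).

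**Figure D3:**
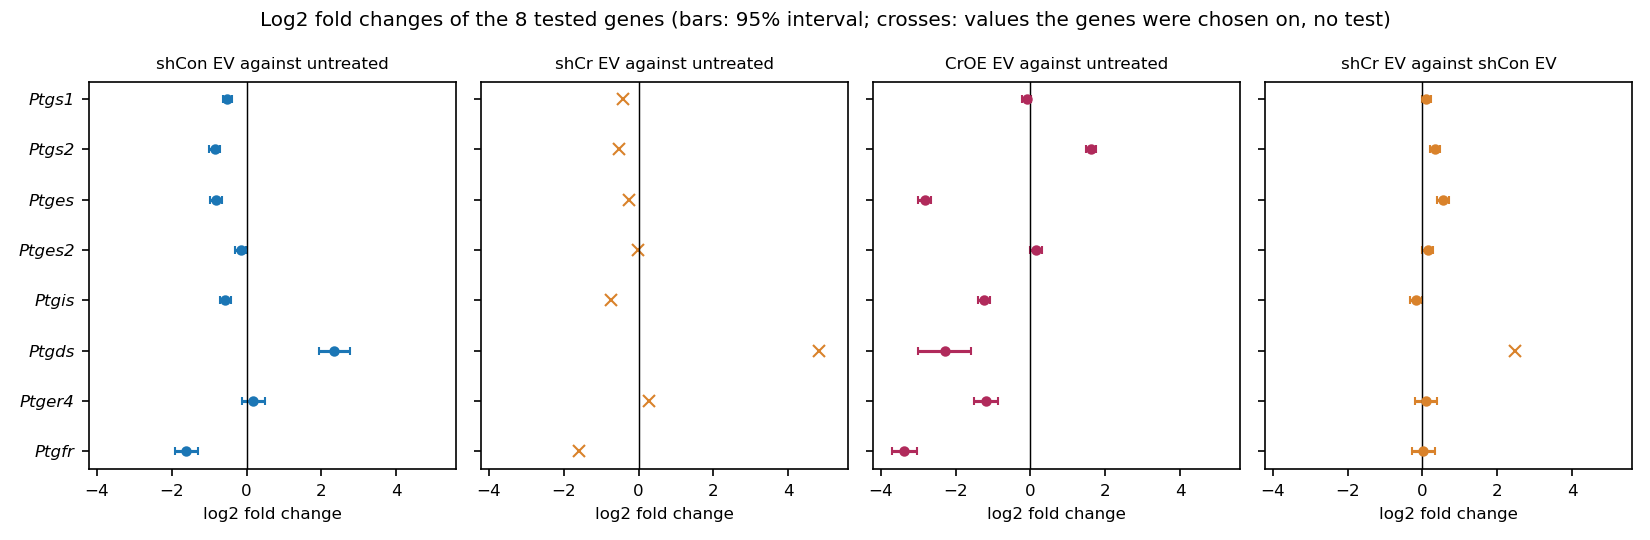
Log2 fold changes of the 8 tested genes in 4 comparisons, with 95% intervals as bars and with crosses, without intervals, for values described without a test. After CrOE EVs Ptgs2 lies at 1.62 and Ptges at -2.82, on opposite sides of 0, while between shCr and shCon EVs both lie above 0, at 0.33 and 0.55.

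The breakdown enzyme and 1 of the 3 receptors were at the limit of detection. Hpgd, the dehydrogenase that begins the inactivation of prostaglandins, had 0 counts in 11 libraries and 1 count in shCon EV replicate 1, and a count of 0 allows up to 3. Ptger2, a prostaglandin E2 receptor that raises cyclic AMP, had 0 counts in all untreated and shCon libraries, 1, 3 and 1 counts after shCr EVs, and 4, 3 and 7 counts after CrOE EVs. At these counts no fold is given for either gene. When no low-count filter was applied, Ptger2 was called in CrOE EVs against untreated cells and against shCon EVs.

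Ptger4, the other cyclic-AMP-raising receptor for prostaglandin E2, was lower after CrOE EVs and was not called between the remaining groups that were tested. Ptger4 stood at 5.42, 6.44 and 5.74 CPM in untreated libraries, 7.59, 6.28 and 6.12 after shCon EVs, 6.10, 7.21 and 8.03 after shCr EVs, and 2.89, 2.33 and 2.53 after CrOE EVs. The first 3 groups overlapped, and all CrOE libraries lay below them. The fall after CrOE EVs was 2.27-fold against untreated cells (log2 difference -1.19, SE 0.14, edgeR adjusted p = 5.69e-06), 2.58-fold against shCon EVs (-1.37, SE 0.14, edgeR adjusted p = 1.35e-06) and 2.77-fold against shCr EVs (-1.47, SE 0.14, edgeR adjusted p = 5.50e-07). The shCon and untreated levels of Ptger4 differed by 0.18 (SE 0.13, 95% interval -0.12 to 0.49, edgeR adjusted p = 0.298), and shCr and shCon levels by 0.099 (SE 0.13, 95% interval -0.20 to 0.39, edgeR adjusted p = 0.711). Exons of genes on the opposite strand overlap 16.5% of the exon length of Ptger4. The strand setting of the counting is not given in the sources used here, so part of its counts may belong to those genes.

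Ptgfr, the receptor for prostaglandin F2α, was lower after every kind of vesicle and lowest after CrOE EVs. Ptgfr stood at 53.1, 44.7 and 47.6 CPM in untreated libraries, 16.6, 16.0 and 15.1 after shCon EVs, 20.7, 15.03 and 13.1 after shCr EVs, and 4.31, 5.03 and 4.69 after CrOE EVs. The shCon and shCr ranges overlapped, and every other pair of groups was separate. It was 3.05-fold lower than untreated after shCon EVs (log2 difference -1.61, SE 0.13, edgeR adjusted p = 1.44e-06) and 10.3-fold lower after CrOE EVs (-3.37, SE 0.15, edgeR adjusted p = 3.27e-10). In the shCon comparison 2.69% of tested genes had a larger change, and in the CrOE comparison 4.22%.

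CrOE EVs lay below shCon EVs in Ptgfr by a log2 difference of -1.76 (SE 0.15, edgeR adjusted p = 2.47e-07) and below shCr EVs by one of -1.79 (SE 0.15, edgeR adjusted p = 1.79e-07). The difference between shCr and shCon EVs was 0.027 (SE 0.14, 95% interval -0.29 to 0.34, edgeR adjusted p = 0.936). It changed to -0.18 (edgeR adjusted p = 0.253) without shCr EV replicate 1, the library with the highest Ptgfr of its group. The shCr value of Ptgfr against untreated cells was -1.58, given without a test.

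The rest of the pathway was read from a list of 32 further genes, of which 25 were tested. Control vesicles moved 15 of the 25 from the untreated level (8 up, 7 down), knockdown vesicles 13 (6 up, 7 down) and CrOE vesicles 20 (8 up, 12 down). The shares of all tested genes called in these comparisons were 38.1%, 37.3% and 73.7%. Between shCr and shCon EVs 2 of 25 were called, beside 8.73% of all genes. The counts were 21 between CrOE and shCon EVs (9 higher, 12 lower), beside 72.6%, and 17 between CrOE and shCr EVs (5 higher, 12 lower), beside 73.9%. The median log2 difference of the 25 was -0.31 after CrOE EVs against untreated cells, beside 0.0078 over all tested genes, and 0.074 between shCr and shCon EVs, beside 0.0043.

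Upstream of the cyclooxygenases, arachidonate release was mixed. Pla2g4a, the cytosolic phospholipase that supplies most arachidonic acid, was 137 ± 4.83 CPM (SD, n = 3) in untreated cells, 95.2 ± 2.20 after shCon EVs, 110 ± 8.97 after shCr EVs and 110 ± 4.70 with CrOE EVs. It was lower than untreated after shCon EVs (log2 difference -0.52, SE 0.062, edgeR adjusted p = 2.88e-05) and after CrOE EVs (-0.31, SE 0.062, edgeR adjusted p = 0.000495). Pla2g12a, a secreted phospholipase, went from 14.5 ± 0.85 CPM in untreated cells to 79.4 ± 1.79 after CrOE EVs (2.45, SE 0.066, edgeR adjusted p = 3.07e-12). Mgll, the lipase that frees arachidonic acid from a monoglyceride in some tissues, fell to 0.168 ± 0.089 CPM from 1.07 ± 0.22 (-2.64, SE 0.45, edgeR adjusted p = 0.000156), on 3 to 9 counts per CrOE library.

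Among the other terminal synthases, 4 of 6 tested were called after CrOE EVs against untreated cells, 2 higher and 2 lower, where 73.7% of all genes were called (36.7% higher, 37.0% lower). Akr1b3, an aldose reductase that can form prostaglandin F2α, was 155 ± 25.6 CPM (SD, n = 3) in untreated cells, 97.3 ± 4.25 after shCon EVs, 104 ± 7.85 after shCr EVs and 279 ± 16.9 with CrOE EVs (log2 difference of CrOE EVs from untreated 0.85, SE 0.10, edgeR adjusted p = 6.41e-06). Ptges3, a co-chaperone with prostaglandin E synthase activity, rose from 95.8 ± 3.31 to 160 ± 6.87 CPM (0.74, SE 0.065, edgeR adjusted p = 2.60e-07). It shares 20.6% of its 31-base stretches with other genes, including a pseudogene copy, so its level is uncertain. The 2 lower were Fam213b (-1.31, SE 0.23, edgeR adjusted p = 0.000198) and Cbr1, a carbonyl reductase (-0.91, SE 0.088, edgeR adjusted p = 7.75e-07). Akr1b3 and Cbr1 share 10.8% and 7.8% of their 31-base stretches with other genes, so their levels are also uncertain.

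All 5 tested genes of breakdown and transport other than Hpgd were called after CrOE EVs against untreated cells, 2 higher and 3 lower, beside 36.7% of all genes higher and 37.0% lower. Abcc4, a pump that exports prostaglandins among other anions, was 38.3, 39.6 and 39.03 CPM in untreated libraries and 287, 291 and 260 after CrOE EVs, 7.17-fold higher (log2 difference 2.84, SE 0.057, edgeR adjusted p = 3.61e-13). It was also higher after shCon EVs, at 59.8 ± 2.11 CPM (SD, n = 3; 0.62, SE 0.055, edgeR adjusted p = 2.52e-06). Slco2a1, the transporter that takes prostaglandins up for breakdown, moved the other way. It was 2.71 ± 0.37 CPM in untreated cells, 1.24 ± 0.023 after shCon EVs and 0.582 ± 0.082 after CrOE EVs, 4.62-fold lower than untreated (-2.21, SE 0.20, edgeR adjusted p = 4.43e-07). Ptgr1, a reductase of prostaglandin breakdown, was 40.2 ± 1.10 CPM in untreated cells, 23.6 ± 1.69 after shCon EVs and 6.79 ± 0.39 after CrOE EVs (-2.56, SE 0.084, edgeR adjusted p = 1.82e-11).

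**Figure D4:**
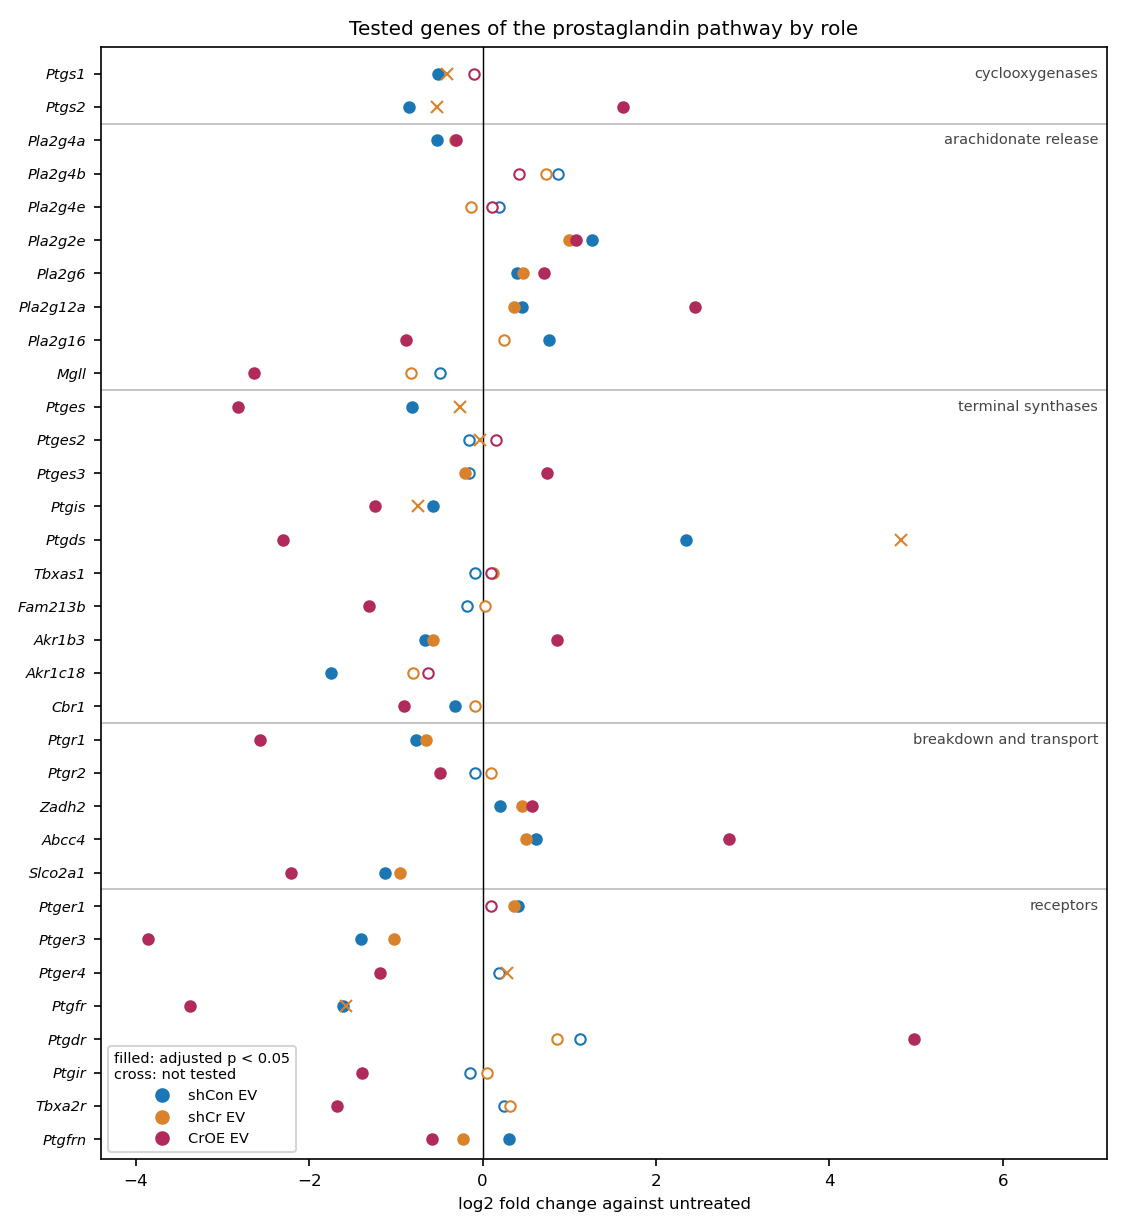
Log2 fold change against untreated cells of the 33 tested pathway genes, ordered by role, for each kind of vesicle, with filled points for an adjusted p under 0.05 and crosses for the 8 genes after shCr EVs, which were chosen on that comparison and not tested in it. After CrOE EVs Ptgdr at 4.97 and Abcc4 at 2.84 lie farthest to the right, and Ptger3 at -3.86 and Ptgfr at -3.37 farthest to the left.

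After CrOE EVs the receptor genes Ptger3, Ptgir and Tbxa2r were lower than in untreated cells, and Ptgdr was higher. The list of receptors held 6 tested genes beyond the chosen 10: these 4, Ptger1, and Ptgfrn, which is named as a regulator and is not itself a prostanoid receptor. Of the 6, 5 were called, 4 lower (with Ptgfrn) and 1 higher, where 73.7% of all genes were called and 37.0% were lower. Ptgdr, a receptor for the prostaglandin D2 that Ptgds makes, had 4, 3 and 7 counts in untreated libraries, 9, 18 and 6 after shCon EVs, 6, 12 and 13 after shCr EVs, and 187, 158 and 220 after CrOE EVs. The CrOE libraries lay above all others, and the other 3 groups overlapped. Its level after CrOE EVs was 5.57 ± 0.85 CPM (SD, n = 3) against 0.173 ± 0.075 in untreated cells (log2 difference 4.97, SE 0.33, edgeR adjusted p = 1.73e-08). An antisense gene overlaps 22.1% of the exon length of Ptgdr, so part of these counts may not be its own.

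Ptgds and Ptgdr had their highest levels in different groups, Ptgds after shCr EVs and Ptgdr after CrOE EVs. Ptgdr2, the other listed receptor for prostaglandin D2, was too low to be tested. Its mean was 0.37 CPM after shCr EVs (9 to 13 counts), 0.27 after shCon EVs, 0.26 after CrOE EVs and 0.15 in untreated cells, with overlapping ranges. Between shCr and shCon EVs, Ptgdr differed by -0.27 (SE 0.40, 95% interval -1.18 to 0.64, edgeR adjusted p = 0.751). Ptger3, a prostaglandin E2 receptor that lowers cyclic AMP, had 34, 33 and 30 counts in untreated libraries and 3, 1 and 4 after CrOE EVs (-3.86, SE 0.38, edgeR adjusted p = 8.42e-07). Ptgir, the prostacyclin receptor, was 7.40 ± 0.77 CPM (SD, n = 3) in untreated cells and 2.82 ± 0.29 after CrOE EVs (-1.39, SE 0.14, edgeR adjusted p = 8.52e-07), alongside the fall of its ligand's synthase Ptgis.

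Between shCr and shCon EVs, the 2 further pathway genes called were Ptgfrn and Zadh2. Ptgfrn, named for negative regulation of the prostaglandin F receptor, was 112 ± 5.90 CPM (SD, n = 3) after shCr EVs and 162 ± 3.94 after shCon EVs (log2 difference -0.53, SE 0.058, edgeR adjusted p = 0.00013). Zadh2, a prostaglandin reductase, was 48.7 ± 3.17 and 40.8 ± 2.08 CPM (0.25, SE 0.070, edgeR adjusted p = 0.0426). The call of Zadh2 was lost in 8 of 13 alternatives, where its adjusted p ran from 0.0208 to 0.182. Pla2g16, a phospholipase at 8.50 ± 2.08 and 12.1 ± 1.38 CPM, just missed the threshold (-0.52, SE 0.15, edgeR adjusted p = 0.0531) and passed it in 6 of 13 alternatives.

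Genes that cyclic AMP is known to induce were listed because Ptger2 and Ptger4 raise cyclic AMP, although many other signals act on these genes. A link of their levels to either receptor was not tested. Of 11 listed, 10 were tested. Between shCr and shCon EVs 4 were called, all higher after shCr EVs, and 0 were lower, where 8.73% of all genes were called (5.22% higher, 3.51% lower). The median log2 difference of the 10 was 0.27, beside 0.0043 over all tested genes. The 4 were the nuclear receptors Nr4a1 (0.94, SE 0.099, edgeR adjusted p = 0.000106) and Nr4a3 (1.66, SE 0.31, edgeR adjusted p = 0.00532), the phosphodiesterase Pde4b (0.41, SE 0.059, edgeR adjusted p = 0.000988) and the phosphatase Dusp1 (0.72, SE 0.11, edgeR adjusted p = 0.00122). Nr4a1 stood at 38.2, 43.2 and 36.5 CPM in untreated libraries, 13.1, 14.3 and 15.1 after shCon EVs, 24.2, 28.7 and 29.0 after shCr EVs, and 5.52, 6.08 and 6.80 after CrOE EVs.

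Against untreated cells, 5 of these 10 genes were lower after shCon EVs and 0 higher, beside 20.2% and 18.0% of all genes. After shCr EVs 5 were lower (Nr4a1, Nr4a2, Fosb, Pde4b and Pde4d) and 2 higher (Nr4a3 and Dusp1), beside 18.8% and 18.4% of all genes. The median log2 difference of the 10 there was -0.27, beside 0.020 over all tested genes. Nr4a1 and Pde4b were thus above the shCon EV level and below the untreated level after shCr EVs. After CrOE EVs 9 of 10 were called, beside 73.7% of all genes, 3 higher (Nr4a2, Crem and Dusp1) and 6 lower (Nr4a1, Nr4a3, Fosb, Pde4b, Pde4d and Sik1). Nr4a1 was 6.39-fold lower there (log2 difference -2.68, SE 0.11, edgeR adjusted p = 1.08e-10) and Dusp1 1.84-fold higher (0.88, SE 0.11, edgeR adjusted p = 6.81e-06). No prostaglandin, cyclic AMP or protein level was measured here, so all values above are of RNA.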

How the data were processed

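RNA of mouse 3T3 cells was measured in 12 libraries, 3 for each of 4 groups (untreated, shCon EV, shCr EV and CrOE EV), made as directional poly(A) libraries per the labels' protocols. Values are estimated counts by gene symbol, which the authors deposited unscaled in 1 table; 39.8% are not whole. The submitters' processing notes name featureCounts and the mm39 build. The aligner, the annotation and the strand setting are not given in the sources used here. In 27 mouse rows the symbol had become a date, and none of them is named here.

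Estimates were rounded to whole numbers; the planned test had assumed raw counts and was kept. Genes passed filterByExpr, libraries were scaled by TMM, and edgeR 4.0.16 (R 4.3.3) fitted 1 quasi-likelihood model with a mean per group to all 12 libraries (8 residual degrees of freedom; biological coefficient of variation 8.90%). P-values were adjusted by Benjamini-Hochberg over all 14279 tested genes, with a call at an adjusted p-value under 0.05. Standard errors were derived from the F statistic. Library totals of 25960054 to 37774020 counts set the precision, which covers counting error and spread between libraries only. The test was also tested on simulated data.

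The 10 genes and all lists were chosen with earlier results of these data known, so no list is independent evidence. Ptgds in every comparison with shCr EVs, and all 10 genes in shCr EVs against untreated cells, are described with no p-value; calls in the latter comparison are counted only beside the share of all genes, and nothing is read from them. The genes named are those 10, the tested genes of the pathway and marker lists, and the 5 genes most correlated with Ptgds over the 12 libraries (average log2 CPM of at least 1, prior count 2). GENCODE M21 supplied exon lengths, overlaps and shared 31-base stretches; RefSeq (GRCm38.p6) supplied upstream sequences.

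Replicate numbers do not pair libraries across groups: 4 of 18 same-numbered pairs had deviations correlated over 0.1, from -0.204 to 0.315. The alternatives tried were DESeq2 1.42.0, size factors by median of ratios, a filter of at least 10 counts per library or none, a replicate block, only the 2 groups compared, no CrOE libraries, a fold change of at least 2, and each replicate left out.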

Additional observations from a re-analysis of the deposited data

How the results depend on the processing

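No direction of a called gene among the 10 reversed under any alternative run. Requiring at least a 2-fold change lowered the count of the 10 genes called to 2 after shCon EVs against untreated cells, 2 after shCr EVs against untreated cells, 0 between shCr and shCon EVs, 5 between CrOE and shCon EVs and 4 between CrOE and shCr EVs. Leaving out each replicate in turn gave 6 to 6 genes called for shCon EVs against untreated, 6 to 7 for shCr EVs against untreated, 6 to 8 for CrOE EVs against untreated, 2 to 2 for shCr against shCon EVs, 8 to 8 for CrOE against shCon EVs and 6 to 7 for CrOE against shCr EVs. The replicate number as a block kept these counts at 6, 6, 6, 2, 8 and 7 in the same order, and 4 of 12 libraries correlated best with their own number. The counts for shCr EVs against untreated cells come from the comparison that holds the rise Ptgds was chosen on. They are a description and nothing is read from them. Over single genes of the 10 in the comparisons where they were tested, 456 results stayed on their side of the threshold in the same direction, 6 moved past it and 6 were lost, all of the latter for Ptges2 between CrOE and shCr EVs. Over the other pathway genes named these numbers were 2502, 31 and 44. A filter of at least 10 counts in every library removed Ptgds, so its fall after CrOE EVs could not be tested there. The counts of all genes called between shCr and shCon EVs ("genes called, shCr EV against shCon EV") fell from 1247 to 641 in a model of only these 2 groups, to 632 to 688 without 1 shCon library, and to 108 with at least a 2-fold change. The cause of these changes was not tested. Depth limits Hpgd and Ptger2 throughout and Ptgds, Ptger3 and Mgll after CrOE EVs.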
